A study of Mus musculus with 12 samples.

Results

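The caudal-type homeobox genes *Cdx1*, *Cdx2* and *Cdx4* and the NK1-type homeobox gene *Nkx1-2* were followed in mouse embryonic stem cells (ESCs) with and without the *Meteor* enhancer. The 4 genes were chosen by name, as markers of posterior and neuromesodermal identity, out of 46517 genes listed in the count files. Earlier results of these data were known when they and the gene lists used below were chosen. The cells were the *Eomes* EGFP reporter ESC line, labelled C57BL/6, in which an EGFP cassette sits at the transcription start of the endogenous *Eomes* gene. WT and *Meteor* KO cells both carried this allele, and the KO cells in addition lacked the *Meteor* enhancer upstream of *Eomes*. RNA was sequenced from 3 WT and 3 KO samples of undifferentiated ESCs (day 0) and from 3 WT and 3 KO samples of embryoid bodies (EBs, day 3). The deletion was made with a Cas9 nickase and selected as grown clones. How many clones stand behind the 3 KO samples is not given in the sources used here. ESCs were kept on mouse embryonic fibroblast feeders and differentiated in hanging drops in serum medium. Nothing in the labels says whether the replicates were separate cultures, so p-values measure the spread between these samples, which may be technical. Between libraries of a group, chi-square per gene was 10.6 to 50.8, more than read counting alone gives. The source of that spread was not tested.

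The Cdx proteins are the vertebrate relatives of *Drosophila* Caudal. In the gastrulating embryo they are made in the posterior primitive streak, the caudal epiblast and the tail bud. Wnt, FGF and retinoic acid signals switch them on there, and they bind and activate central genes of the *Hox* clusters. Together they sustain the elongation of the body axis. *Nkx1-2* (also called *Sax1*) encodes a homeodomain repressor and marks the caudal lateral epiblast, where neuromesodermal progenitors, cells able to give rise to both spinal cord and paraxial mesoderm, reside. *Cdx2* has a separate earlier role in the trophectoderm, and *Cdx1* and *Cdx2* are also used by the adult intestinal epithelium.

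Promoters are shown because the members were lower together in KO at day 3, with those searched short elements marked that had a match. In GRCm38, *Cdx2* (ENSMUSG00000029646) has 3 exons on the minus strand of chr5:147300805-147307270, *Cdx4* (ENSMUSG00000031326) has 3 exons on the plus strand of chrX:103321398-103330592, and *Nkx1-2* (ENSMUSG00000048528) has 2 exons on the minus strand of chr7:132594878-132599637. RefSeq promoter sequences of build GRCm38.p6, from 250 bases before the transcription start to 50 bases after it, matched 3 of the 4 members, *Cdx1* being the exception. They lie at chr5:147307200-147307499 (minus strand), chrX:103321148-103321447 (plus strand) and chr7:132599588-132599887 (minus strand), and are written 5′ to 3′ on the gene's strand with the POU octamer ATGCAAAT and the CCAAT box, on either strand, in capitals.
Cdx2: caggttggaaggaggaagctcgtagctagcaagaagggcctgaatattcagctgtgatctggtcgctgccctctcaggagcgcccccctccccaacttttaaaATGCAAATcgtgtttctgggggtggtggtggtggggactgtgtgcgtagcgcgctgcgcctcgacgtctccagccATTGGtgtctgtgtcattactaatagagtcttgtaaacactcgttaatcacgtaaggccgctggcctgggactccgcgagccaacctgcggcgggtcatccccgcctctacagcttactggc
Cdx4: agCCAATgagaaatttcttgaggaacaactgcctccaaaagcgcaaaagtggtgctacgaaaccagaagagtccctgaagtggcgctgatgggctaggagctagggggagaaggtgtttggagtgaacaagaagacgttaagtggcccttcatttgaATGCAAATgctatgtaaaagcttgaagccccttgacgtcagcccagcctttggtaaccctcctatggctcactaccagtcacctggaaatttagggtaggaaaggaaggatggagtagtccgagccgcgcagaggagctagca
Nkx1-2: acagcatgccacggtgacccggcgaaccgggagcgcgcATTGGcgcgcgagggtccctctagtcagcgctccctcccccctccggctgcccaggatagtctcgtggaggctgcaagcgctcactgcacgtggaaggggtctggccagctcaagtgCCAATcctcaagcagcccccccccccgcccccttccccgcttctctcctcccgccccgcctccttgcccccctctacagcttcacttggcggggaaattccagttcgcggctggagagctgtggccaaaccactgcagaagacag

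The octamer, the element read by POU factors such as Oct4, is on the gene's own strand in *Cdx2* from base -147 and in *Cdx4* from base -93 relative to the transcription start. It is in 570 of 32841 RefSeq promoter windows of the same length, or 1.74%. *Nkx1-2* has no octamer in this window and has 2 CCAAT boxes, from base -212 on the opposite strand and from base -95. A CCAAT box is also in *Cdx2* (from -72, opposite strand) and *Cdx4* (from -248), and in 37.4% of all windows. Other elements were searched on both strands and had no match in any of the 3 windows. They were the TCF/LEF element of Wnt signalling in its form CTTTGAT (in 3.73% of all windows) and in its other form CTTTGTT (in 5.85% of them), the CDX element TTTATG (in 11.9%), the T-box element TCACACCT (in 1.28%), the nuclear receptor element AGGTCA (in 16.3%) and the TATA box TATAAA (in 13.6%). The matches do not overlap one another. The motifs were chosen with these sequences in view, and a match describes letters, not a site in use. The GC content was 57.3% in *Cdx2*, 50.3% in *Cdx4* and 67.3% in *Nkx1-2*, beside a median of 52.7% over all windows.

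The 12 libraries held 17455927 to 23910943 reads counted on genes, so that 1 CPM (counts scaled to library size and TMM factors) stood for 17.5 to 23.9 reads. The labels held at the targeted locus, where *2610509F24Rik* (ENSMUSG00000103968), an annotated transcript of the *Meteor* locus, had 0 counts in every KO library, against 52 to 107 counts in WT at day 0 and 29 to 92 at day 3. The X-linked gene *Upf3b*, a nonsense-mediated decay factor that the labels do not name, also differed. It had 45.5 to 55.9 CPM in WT ESCs and 0.224 to 0.661 in KO ESCs, and its part in any difference between genotypes was not tested. ESC markers were present at day 0 (8 of 8 above 1 CPM). In 1 WT library of each day the posterior genes stood apart. WT day 0 replicate 3 had a summed level of 7 primitive streak markers of 160.7 CPM, against 41.2 to 70.7 in the other WT ESC libraries. WT day 3 replicate 3 had a summed level of 8 extraembryonic mesoderm markers of 249.6 CPM, against 19.9 and 26.7 in the other WT EB libraries, with *Hand1* at 105 CPM and *Foxf1* at 24.3 CPM. Values without them are given beside the members' results whose call or sign they change. In such bulk samples, fewer cells of a type and less RNA per cell cannot be told apart.

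All 4 members were lower in KO than in WT EBs at day 3, and in each the 3 KO libraries lay below the 3 WT libraries. In edgeR's quasi-likelihood test, 30.9% of the 15673 genes tested were called at this day (Benjamini-Hochberg adjusted p below 0.05), 16.7% as lower and 14.3% as higher. The decrease was 25.7-fold for *Nkx1-2*, 30.7-fold for *Cdx2*, 22.8-fold for *Cdx1* and 5.71-fold for *Cdx4*. Leaving out WT replicate 3 ended the call for *Cdx4*. The other 3 members kept theirs in all 21 alternative fits.

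**Figure D1:**
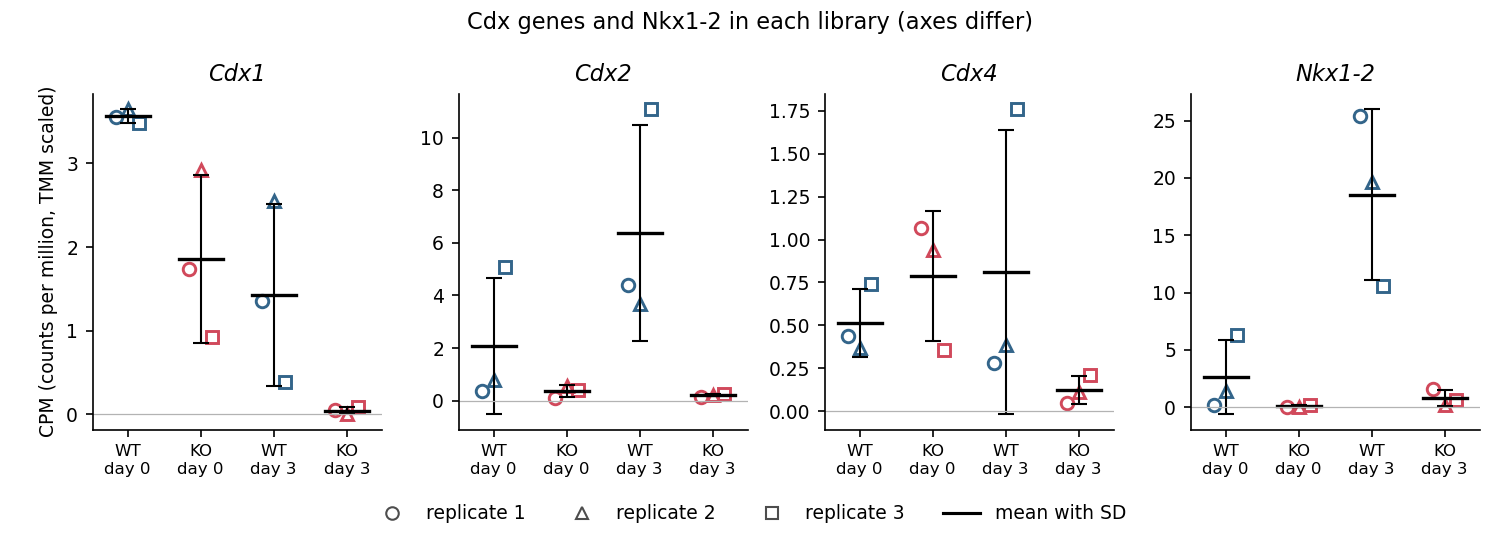
Level of each member in each library, in TMM-scaled CPM on a linear axis that differs between panels; symbols give the replicate number, bars the mean and SD of 3 libraries. All KO day 3 libraries lie between 0 and 1.6 CPM, and *Nkx1-2* reaches 10.6 to 25.4 CPM in WT EBs.

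*Nkx1-2* had the highest mean level of the members per exon length in EBs of both genotypes, with *Cdx2* above it in WT replicate 3 and KO replicate 2. WT EBs held 25.4, 19.6 and 10.6 CPM in replicates 1, 2 and 3, and KO EBs 1.6, 0.171 and 0.624 CPM. The lowest WT library was above the highest KO library by several CPM. The log2 fold change was -4.68 (SE 0.96, edgeR adjusted p = 0.00538), from 18.5 ± 7.48 to 0.798 ± 0.73 CPM (SD, n = 3). As read counts, this was 545, 408 and 222 in WT against 32, 3 and 15 in KO.

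In ESCs *Nkx1-2* was low and uneven. The WT libraries held 0.164, 1.41 and 6.29 CPM and the KO libraries 0.056, 0.0551 and 0.204 CPM. WT replicate 1 lay inside the range of the KO libraries, and WT replicate 3, the library with high streak markers, carried 119 of the 149 WT reads. The fitted log2 fold change of -4.42 (SE 1.34, edgeR adjusted p = 0.0424) became -2.63 (adjusted p = 0.216) without that library. It was also not called without WT replicate 2, WT day 3 replicate 1, any KO day 0 library or KO day 3 replicate 2 or 3 (-5.08 to -4.15). From day 0 to day 3 *Nkx1-2* rose in WT by a log2 fold change of 3.1 (SE 0.92, edgeR adjusted p = 0.0159), a call lost without replicate 2 of either day (2.90, adjusted p = 0.0749, at day 0 and 2.45, adjusted p = 0.085, at day 3). In KO the fitted change was 2.84 (95% interval -0.48 to 6.16, edgeR adjusted p = 0.128), on 6 reads at day 0 and 50 at day 3, with replicate 1 holding 32 of them. That change passed without WT day 0 replicate 1 (2.71, adjusted p = 0.0431). The order of the group means was WT day 3, WT day 0, KO day 3 and KO day 0. KO day 3 overlapped both of its neighbours, WT day 0 and KO day 0. The test of the difference between the 2 changes gave an adjusted p of 0.964 in edgeR, too imprecise to show that they were alike.

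The counting of *Nkx1-2* has limits of its own. The gene lies inside the span of *Fgfr2* on the same strand, sharing no exon bases with it. It shares 541 exon bases with the antisense gene *Gm16764*, which had 0 to 2 counts in every library. Of its 3165 exonic words of 100 bases, 346 (10.9%) also occur, on either strand, in a transcript of another gene. Genes at the same place, such as *Gm16764*, were not left out of that search. How many reads of *Nkx1-2* this affects was not tested. The paralog *Nkx1-1* stayed at or under 0.417 CPM in all 12 libraries and was not tested.

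*Cdx2* was the Cdx gene with the highest level per exon length in WT EBs. WT EBs held 4.38, 3.66 and 11.1 CPM, the highest being replicate 3, and KO EBs 0.15, 0.228 and 0.25 CPM. All 3 KO libraries were under every WT library. Means were 6.38 ± 4.1 and 0.209 ± 0.0524 CPM (SD, n = 3), and the log2 fold change was -4.94 (SE 0.67, edgeR adjusted p = 0.000656).

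In ESCs *Cdx2* was at 0.382, 0.783 and 5.07 CPM in WT and at 0.112, 0.551 and 0.409 CPM in KO. The groups overlapped, since WT replicate 1 was under KO replicates 2 and 3. The fitted change of -2.13 on the log2 scale (SE 0.65, edgeR adjusted p = 0.0441) became -1.07 (adjusted p = 0.284) without WT replicate 3. It was also not called without WT replicate 2, KO replicate 1 or 3 or any KO day 3 library (-2.47 to -1.44). In WT, *Cdx2* rose from day 0 to day 3 by 1.98 on the log2 scale (SE 0.52, edgeR adjusted p = 0.00838), and by 3.03 without WT day 0 replicate 3 (adjusted p = 0.00139). In KO it changed by -0.82 (95% interval -2.67 to 1.03, edgeR adjusted p = 0.424), with 20 reads at day 0 and 13 at day 3 over the 3 libraries. The order of the means was WT day 3, WT day 0, KO day 0 and KO day 3. WT day 0 overlapped both of its neighbours, and the KO groups overlapped each other. The difference between the changes in KO and in WT was -2.81 on the log2 scale (95% interval -4.99 to -0.62, edgeR adjusted p = 0.0802), and -3.79 without WT day 0 replicate 3 (adjusted p = 0.0186).

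*Cdx4*, an X-linked gene of the posterior streak and tail bud, never averaged 1 CPM in a group. WT EBs held 0.28, 0.385 and 1.76 CPM, or 6, 8 and 37 reads. KO EBs held 0.05, 0.114 and 0.208 CPM, or 1, 2 and 5 reads. The groups did not overlap, although WT replicate 1 and KO replicate 3 differed by a single read. The log2 fold change of -2.51 (SE 0.81, edgeR adjusted p = 0.0401) became -1.30 (adjusted p = 0.281) without WT replicate 3, and the call held in 12 of 21 alternative fits. It was also lost without WT day 0 replicate 1, 2 or 3 (adjusted p = 0.0509, 0.0542 and 0.0547) and without KO day 3 replicate 1, 2 or 3 (0.108, 0.0914 and 0.131).

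In ESCs *Cdx4* was at 0.437, 0.365 and 0.74 CPM in WT and 1.06, 0.937 and 0.358 CPM in KO. The ranges overlapped, with KO replicate 3 under every WT library. The difference of 0.77 on the log2 scale had a 95% interval of -0.76 to 2.29 (edgeR adjusted p = 0.474), which spans both directions. *Cdx4* fell from day 0 to day 3 in KO by 2.77 on the log2 scale (SE 0.83, edgeR adjusted p = 0.016), a call lost without KO day 0 replicate 1 (-2.17, adjusted p = 0.065) or 2 (-2.40, adjusted p = 0.0627) or KO day 3 replicate 1 (-2.51, adjusted p = 0.0564). In WT its change was 0.51 (95% interval -0.99 to 2.01, edgeR adjusted p = 0.543), and -0.66 without WT day 3 replicate 3 (adjusted p = 0.443). The order of its means was WT day 3, KO day 0, WT day 0 and KO day 3, and the first 3 groups overlapped.

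*Cdx1*, a direct target of Wnt and retinoic acid signals in the streak, had another course. It was highest in undifferentiated WT cells, with 3.55, 3.65 and 3.49 CPM in the 3 libraries. Its gene (ENSMUSG00000024619) has 3 exons on the minus strand of chr18:61018862-61036199. These values were close together (SD 0.0838), unlike those of *Cdx2* (SD 2.6) and *Nkx1-2* (SD 3.24) in the same libraries.

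KO ESCs held 1.74, 2.92 and 0.919 CPM of *Cdx1*, all below the WT libraries. The log2 fold change of -1.11 (SE 0.46, 95% interval -2.14 to -0.07) did not pass the adjusted threshold (edgeR adjusted p = 0.123, unadjusted p = 0.0384). Without WT replicate 3 the edgeR adjusted p was 0.464, and leaving out each library in turn gave -1.51 to -0.62. In this comparison 20.4% of tested genes were called, 10.9% as lower and 9.56% as higher. Of the members, *Cdx2* and *Nkx1-2* passed at day 0, both as lower in KO, and neither passed without WT replicate 3.

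At day 3 *Cdx1* was at 1.35, 2.55 and 0.381 CPM in WT EBs, with replicate 3 lowest. KO EBs held 0.05, 0 and 0.0833 CPM, which was 1, 0 and 2 reads. The groups were apart, at a log2 fold change of -4.51 (SE 0.78, edgeR adjusted p = 0.00224). From the summed reads, 90 in WT and 3 in KO, WT was 30.8 times higher (exact 95% interval 10.2 to 152, counting error only). *Cdx1* fell with differentiation in both genotypes, by 1.55 on the log2 scale in WT (SE 0.47, edgeR adjusted p = 0.0186) and by 4.95 in KO (SE 0.76, edgeR adjusted p = 0.00035). The call in WT was lost without WT day 0 replicate 3 (-1.11, adjusted p = 0.0802) or WT day 3 replicate 3 (-1.13, adjusted p = 0.0512). The order of its means was WT day 0, KO day 0, WT day 3 and KO day 3, the middle groups overlapping.

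Between days, *Cdx2* and *Nkx1-2* rose and *Cdx1* fell in WT, where 56.2% of tested genes were called (30.7% higher and 25.5% lower). In KO, *Cdx1* and *Cdx4* fell in the edgeR fit, where 56.6% were called (29.4% higher and 27.2% lower). *Nkx1-2* was not called there by edgeR and was called higher by DESeq2 (2.95). The count of members that passed in WT was 3 of 4, and in KO 2 of 4. The day comparisons of WT and of KO share no libraries. The test of the difference between the genotypes' changes, which called 15.5% of genes (7.34% with a lower and 8.21% with a higher change in KO), passed for *Cdx1* (-3.41, SE 0.96, edgeR adjusted p = 0.0395) and for no other member in this fit. The call for *Cdx1* held in 10 of 20 alternative fits. With a block within each day, where the numbers pair the genotypes, *Cdx2* (-2.62, edgeR adjusted p = 0.044) and *Cdx4* (-3.19, edgeR adjusted p = 0.0163) passed as well, as they did in DESeq2. In the main fit the difference for *Cdx4* was -3.28 (edgeR adjusted p = 0.0637), and its adjusted p was 0.247 without WT day 3 replicate 3.

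**Figure D2:**
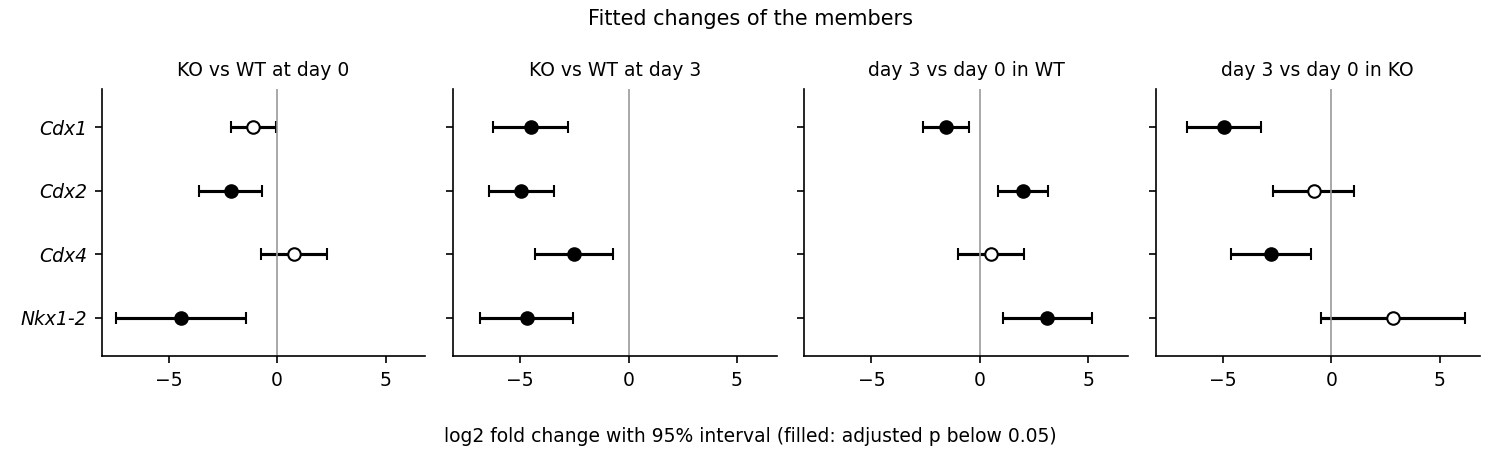
Log2 fold change of each member in 4 comparisons, with the 95% interval of the edgeR fit; filled points passed an adjusted p of 0.05. All 4 members are filled and left of 0 for KO against WT at day 3, from -2.51 to -4.94.

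Per exon length, the make-up of the Cdx group changed with differentiation in WT. *Cdx1* gave 83.8% and 79.7% of the summed Cdx level (CPM per kb) in WT ESC replicates 1 and 2. *Cdx2* led in replicate 3, with 48.6%. In WT EBs *Cdx2* gave the largest share in every library, 67.9%, 49.5% and 81.5% in replicates 1, 2 and 3. KO ESCs were led by *Cdx1* in all 3 libraries (59.2% to 69.8%). The summed Cdx level was 2.42, 2.62 and 4.61 CPM per kb in WT ESCs and 1.58, 2.39 and 0.888 in KO ESCs. In EBs it was 2.85, 3.27 and 6.02 in WT and 0.12, 0.158 and 0.264 in KO, where shares rest on a few reads. *Nkx1-2* exceeded every Cdx gene per kb in WT EB replicates 1 and 2, and *Cdx2* did so in replicate 3. *Nkx1-2* had a mean of 5.68 ± 2.29 and *Cdx2* of 2.82 ± 1.81 CPM per kb in WT EBs.

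**Figure D3:**
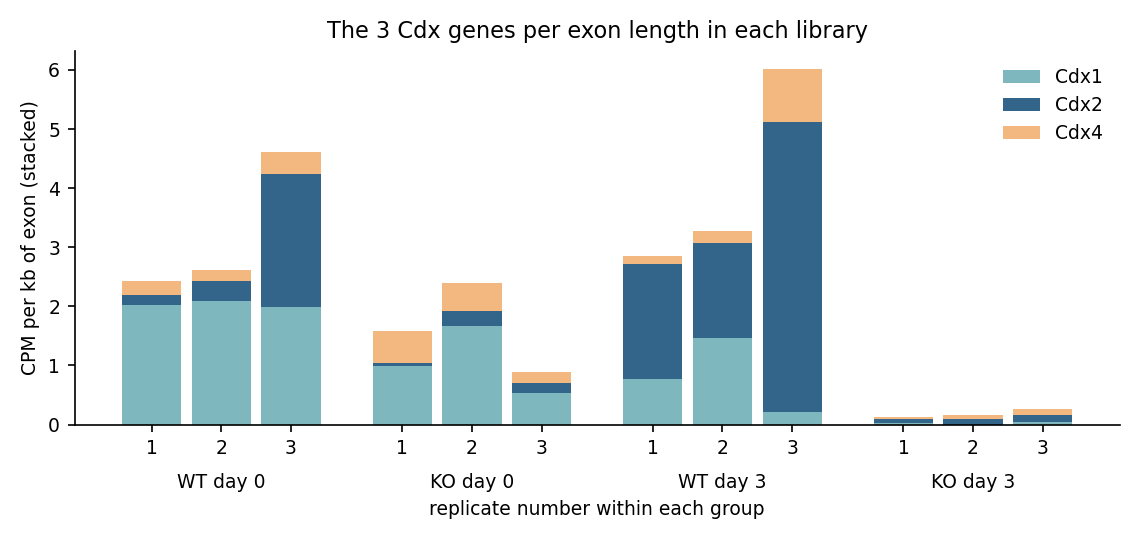
Level of *Cdx1*, *Cdx2* and *Cdx4* in CPM per kb of exon, stacked for each of the 12 libraries. The KO day 3 libraries sum to 0.12 to 0.264 CPM per kb, and *Cdx2* gives 49.5% to 81.5% of the sum in WT day 3 libraries.

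The 3 WT EB libraries did not rank the members alike. *Nkx1-2* and *Cdx1* were lowest in replicate 3, and *Cdx2* and *Cdx4* highest there. Of the 7 primitive streak markers 5 were lowest in replicate 3 (*T*, *Eomes*, *Mixl1*, *Gsc* and *Foxa2*), *Mesp1* was highest there (21, 28.1 and 28.5 CPM) and *Lhx1* lay between the others (304.3, 199.5 and 224.5 CPM). *T*, the Brachyury factor of streak and nascent mesoderm, was at 692.5, 612.6 and 269.5 CPM, and *Wnt3a*, the Wnt ligand of the tail bud, at 4.43, 3.61 and 0.762 CPM. *Hoxb1*, an anterior *Hox* gene of the posterior streak, was highest in replicate 3, at 4.9, 4.57 and 9 CPM, as was *Cyp26a1*, which breaks down retinoic acid, at 76.7, 57.3 and 128.8 CPM. Extraembryonic mesoderm markers were also highest in this library, and so were 8 visceral endoderm markers (a sum of 134.2 CPM against 38.7 and 44.3, with *Ttr* at 11.3 CPM). The part of these cell types in the levels of *Cdx2* and *Cdx4* there was not tested. *Cdx2* in WT EB replicates 1 and 2 was still above every KO library, and without replicate 3 its log2 fold change stayed past the threshold.

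Trophectoderm markers, checked because *Cdx2* is also a trophectoderm factor, summed to 6.72, 9.68 and 27.1 CPM in WT EBs and 3.55 to 9.38 in KO EBs. Of the 10 in the list, the placental gene *Tpbpa* was at 0 in all libraries, and *Elf5*, a defining trophoblast factor, was at or under 0.0551 CPM throughout. *Gata3* and *Plac1* were highest in WT EB replicate 3, at 9.96 and 4 CPM. The list had 2 of 8 tested genes lower in KO at day 3, with a median of -0.82, beside 16.7% of all tested genes. Without WT EB replicate 3 it had 1 of 7. The 2 called genes were *Gata3* and *Plac1*. *Plac1* was above 1 CPM only in WT EB replicate 3, and *Gata3* only in replicate 3 of WT ESCs and of WT EBs. Both entered the test through WT libraries, so they could hardly be called higher in KO EBs. Intestinal markers, 7 in number, summed to 2.15 to 14.5 CPM over all libraries, with *Fabp2* at 0. Of 5 tested, 2 were higher in KO ESCs, *Cdh17* (2.28, edgeR adjusted p = 0.0133) and *Lgals4* (1.63, edgeR adjusted p = 0.00426), beside 9.56% of all tested genes. Feeder fibroblast markers summed to 90 to 314 CPM in WT ESCs and 148 to 427 in KO ESCs, and 0 of 9 tested passed between them in edgeR's test.

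**Figure D4:**
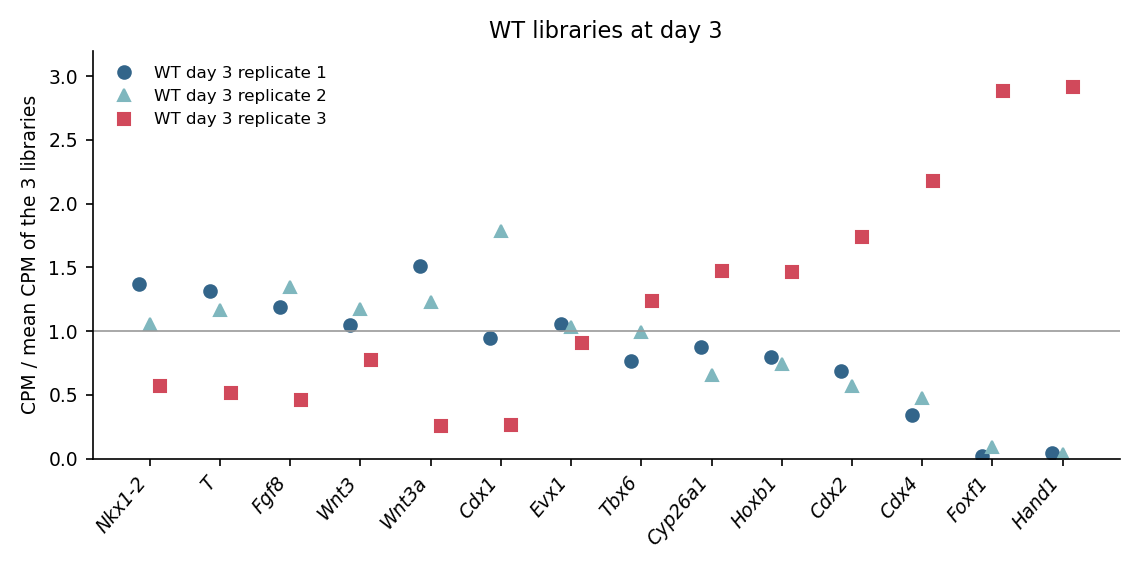
CPM of each gene in the 3 WT day 3 libraries, divided by the mean of the 3 (linear axis, no unit), with genes arranged for display. Replicate 3, in red, is below the others for *Nkx1-2* (10.6 CPM), *T* (269.5 CPM) and *Cdx1* (0.381 CPM), and above them for *Cdx2* (11.1 CPM), *Cdx4* (1.76 CPM) and *Hand1* (105 CPM).

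Other genes of the caudal epiblast and of neuromesodermal progenitors were also lower in KO EBs. Of the 14 in the list 13 were tested, and 9 were lower and 1 higher in KO at day 3. Over all tested genes 16.7% were lower and 14.3% higher. The list had a median log2 fold change of -3.35, beside a median of -0.002 over all tested genes. *T* went from the levels above to 13.5, 1.31 and 4.12 CPM, a log2 fold change of -6.71 (SE 1.13, edgeR adjusted p = 0.002). *Sp5*, a Wnt-responsive zinc finger gene, fell by 7.0 (from 55, 72 and 18 to 0.75, 0.114 and 0.25 CPM). *Evx1*, a homeobox gene of the posterior streak, fell by 6.81 (from 41.6, 40.4 and 35.7 to 0.75, 0 and 0.375 CPM). *Cyp26a1* fell by 5.05, to 1.55, 3.87 and 2.21 CPM. *Msgn1*, a presomitic mesoderm factor, was at 2.47, 2.41 and 5.67 CPM in WT EBs and had no count in the 3 KO EB libraries. It passed the filter on low values through the WT EB libraries only.

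*Sox2*, which neuromesodermal progenitors express together with *T*, went the other way. It was at 74.2, 62.6 and 61.2 CPM in WT EBs and at 192.8, 159.8 and 151.1 CPM in KO EBs, a log2 fold change of 1.34 (SE 0.07, edgeR adjusted p = 3.6e-06). *Sox2* is equally an ESC and neural gene. *Tbx6*, which directs progenitors to paraxial mesoderm, fell by 2.99 (from 5.64, 7.37 and 9.15 to 0.75, 1.02 and 0.999 CPM). At day 0, 6 of 13 listed genes were lower in KO and 0 higher, beside 10.9% lower and 9.56% higher over all tested genes. The list had a median of -1.85 beside -0.01 over all tested genes, and 3 listed genes were lower without WT replicate 3. *Hoxb1* was lower at both days, by 3.73 at day 0 (1.47, 1.15 and 2.8 CPM in WT, 0.112, 0.165 and 0.102 in KO) and by 5.24 at day 3. In WT cells 9 of the 13 rose with differentiation and 4 fell, beside 30.7% and 25.5% of all tested genes.

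The list of Wnt genes holds ligands, TCF factors and feedback targets of the pathway. It had 12 of 17 lower and 2 higher in KO EBs, with a median of -3.50. Over all tested genes 16.7% were lower and 14.3% higher at this day. *Wnt3*, the ligand that starts the streak, fell by 4.80 (SE 0.54), from 65.7, 73.1 and 48.4 to 2.85, 1.36 and 2.91 CPM. *Wnt3a* fell by 6.93 (SE 1.02), to 0, 0.0569 and 0 CPM. The Wnt antagonist *Dkk1* fell by 6.65 and the agonist *Rspo3* fell by 5.89. Those higher in KO were *Tcf7l1*, a TCF factor that mostly represses (1.27), and *Ctnnb1*, encoding β-catenin (0.27). In ESCs 7 were lower and 1 higher, with a median of -1.05, and 4 lower and 0 higher without WT replicate 3. Over all tested genes 10.9% were lower and 9.56% higher in ESCs. *Wnt3* (-3.59), *Lef1* (-2.90) and *Wnt8a* (-2.65) led the decrease at day 0, while *Wnt3a* did not pass (0.92, edgeR adjusted p = 0.38).

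**Figure D5:**
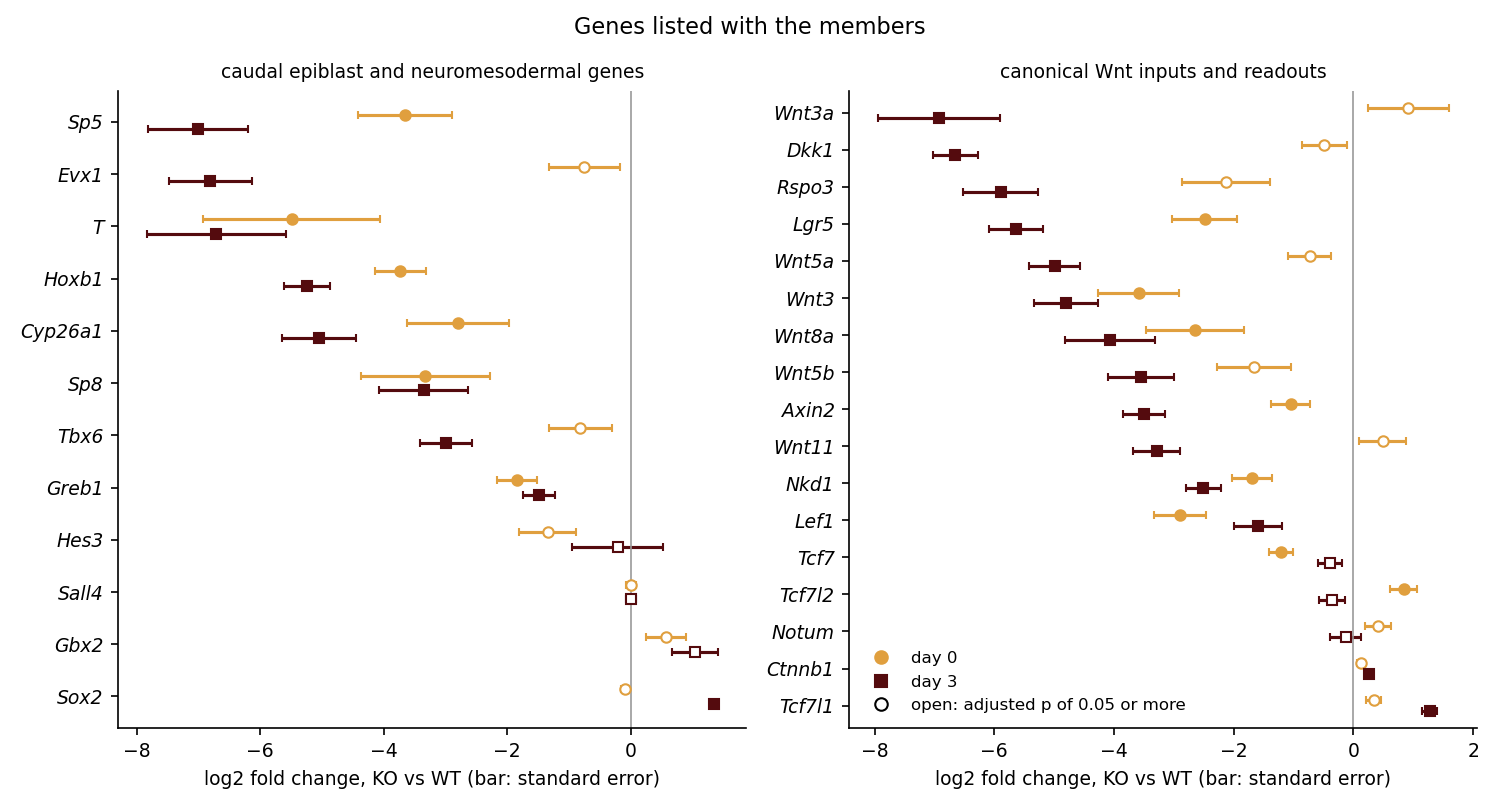
Log2 fold change of KO against WT at day 0 (circles) and day 3 (squares) with its standard error, for tested genes of the caudal epiblast list (*Msgn1* left out, as it had no KO count at day 3) and the Wnt list; open symbols did not pass. *T* (-6.71) and *Wnt3* (-4.80) at day 3 are far left of 0 and *Sox2* (1.34) is right of it.

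FGF genes did not move one way. In KO EBs 3 of 13 were lower and 2 higher, with a median of -0.30, beside 16.7% lower and 14.3% higher over all tested genes. *Fgf8*, the FGF of the streak and caudal epiblast, fell by 4.42 (SE 0.84), from 109.6, 124.1 and 42.8 to 9, 1.65 and 3.62 CPM. *Fgf3* (-4.06) and *Fgf17* (-2.42) fell with it, and *Fgf4*, an ESC ligand, rose by 1.76. Without WT EB replicate 3, or with a block within each day, 6 were lower, and DESeq2 gave 5. In ESCs 3 were lower (*Fgf8* at -4.81, *Fgf5* at -3.34 and *Fgf15* at -1.95) and 3 higher, with a median of -0.03. Over all tested genes 10.9% were lower and 9.56% higher at that day. Without WT replicate 3, 2 were lower, and 1 was lower without any KO ESC library in turn.

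Of 10 retinoic acid genes 9 were tested, and 3 were higher and 1 lower in KO EBs, with a median of 0.09. Over all tested genes 14.3% were higher and 16.7% lower. *Aldh1a2*, which makes retinoic acid in the trunk, was at 0.886, 1.35 and 4.24 CPM in WT EBs and 0.6, 0.796 and 0.333 in KO (log2 fold change -1.97, edgeR adjusted p = 0.058). The receptor gene *Rarg* rose by 1.17 and *Crabp2*, which carries retinoic acid to the nucleus, by 2.17, while *Crabp1* fell by 1.81. At day 0 the edgeR fit called *Rarg* (0.57) in a list with a median of -0.05, limma-voom called 1 further gene, lower in KO, and DESeq2 and a block within each day called 2 lower.

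The central *Hox* genes are known targets of Cdx proteins. Of 17 in the list 5 passed the filter on low values, and 0 passed edgeR's test between genotypes at day 0 or at day 3. The same count came from limma-voom and DESeq2, and at an unadjusted p below 0.05 edgeR gave 0 at day 0 and 1 at day 3. The median at day 3 was -2.27, and it was 0.21 over the 2 genes that remained testable without WT replicate 3. *Hoxb4* was at 0.0466, 0 and 2 CPM in WT EBs and *Hoxb8* at 0, 0.0481 and 1 CPM, so that replicate 3 carried nearly all their reads. *Hoxb9* and *Hoxa7* were at their highest in ESCs and fell with differentiation in both genotypes. *Hoxb9* was at 1.42, 3.5 and 2.85 CPM in WT and 0.784, 3.53 and 2.4 CPM in KO ESCs, and at or under 0.429 CPM in EBs (log2 fold changes -3.68 in WT and -4.92 in KO, edgeR adjusted p = 0.000113 and 4.4e-05). *Hoxa7* fell by 2.85 in WT and fell by 4.47 in KO (edgeR adjusted p = 0.00711 and 0.00132). Feeder fibroblast markers summed to 90, 314.1 and 171.8 CPM in WT ESC replicates 1, 2 and 3. In KO ESCs they summed to 148.4, 427.4 and 303.1 CPM, and in EBs to 41 to 96.5 (WT) and 39.4 to 83.7 (KO). The part of feeder cells in these *Hox* levels was not tested. The other genes of the list were not called between days.

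Mesodermal and neural lists differed in their counts. Over all tested genes 16.7% were lower and 14.3% higher in KO at day 3, and 10.9% and 9.56% at day 0. Of 12 presomitic and paraxial mesoderm genes 10 were tested and 6 were lower in KO EBs, with none higher and a median of -2.97. *Tbx6* and *Msgn1* are also in the caudal epiblast list and count among the lower genes of both lists. *Mesp2* fell by 4.07 and *Foxc2* by 4.39, with *Foxc2* at 0.56, 1.01 and 6.1 CPM in WT EB replicates 1, 2 and 3. *Msgn1*, *Foxc2* and *Pax3* were above 1 CPM in WT EB libraries only, *Pax3* only in replicate 3. They entered the test through the group where they were high, so they could hardly be called higher in KO EBs. In ESCs 1 passed, *Dll3*, with a log2 fold change of -1.71. DESeq2, a block within each day and the fit without WT day 0 replicate 3 gave 2 lower. Of 10 neural plate genes 9 were tested. In KO EBs *Sox1* (2.47), *Sox3* (1.96) and *Pax6* (1.58) were higher and *Irx3* (-2.27) and *Nes* (-0.99) lower, with a list median of 0.58. In ESCs 6 were lower and 0 higher, led by *Hes5* (-3.34), *Otx2* (-3.21) and *Zic2* (-2.64), with a median of -1.59, and 5 were lower without WT replicate 3. All these values are log2 fold changes from the same edgeR fit.

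Over the 12 libraries, the genes whose log2(CPM + 1) followed that of *Nkx1-2* most closely were *Btla* (Pearson's r = 0.989), *T* (0.988), *Car2* (0.985), *Fgf8* (0.98) and *Wnt3* (0.979). For *Cdx2* they were *Cd36* (0.969), *AW011738* (0.954), *Tax1bp3* (0.952), *Msx1* (0.948) and *Hoxb1* (0.943). For *Cdx1* they were *Arl5c* (0.953), *Sema4f* (0.948), *Lrrc59* (0.942), *Kif18b* (0.932) and *Tmem11* (0.928). No such list was made for *Cdx4*. The libraries fall into 4 groups of 3, which these values share, so they describe likeness of pattern and carry no p. Between members, r was 0.868 for *Cdx2* and *Nkx1-2*, 0.508 for *Cdx2* and *Cdx4*, and 0.16 or 0.0943 for *Cdx1* with *Cdx2* or *Nkx1-2*.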

How the data were processed

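Polyadenylated RNA of 12 samples was sequenced. Per the study's methods and the submitters' processing notes, the authors used Cutadapt 1.3 for trimming, STAR 2.4.2a for alignment to GRCm38 and HTSeq 0.6.1 for counting per Ensembl gene; the strand setting of the counting is not given in the sources used here. The deposited values are raw read counts, not normalized. Rows that name no gene were left out of library sizes: reads at several places (36.5% to 44.1%), without a feature (6.14% to 9.32%) and ambiguous (0.705% to 0.75%). Identifiers were paired with GENCODE M21 (46005 of 46517).

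Genes above 1 CPM in at least 1 sample (15673) were tested with edgeR 4.0.16 (TMM, quasi-likelihood F-test, two-sided) over all 12 libraries, with group and the replicate number as a block, in place of the batch factor of the study's methods. Adjusted p is Benjamini-Hochberg over all tested genes. On simulated data 200 of 200 genes changed by 2 on the log2 scale were recovered at day 0 (10 wrongly called) and 199 at day 3 (7 wrongly called), over 15673 genes. The simulation had no replicate effect, and its changed genes were drawn from those above a minimum mean count in WT. Recovery of genes with fewer reads, such as *Cdx4*, was therefore not tested. limma 3.58.1, DESeq2 1.42.0, other filters and scalings, fits without the block and leaving out each library in turn were alternatives. Leaving out all libraries numbered 3 was added after seeing the data. Same-numbered WT and KO libraries of a day deviated together (r 0.289 to 0.692 in 6 pairs, 13805 genes), and same-numbered libraries of the same genotype on different days did not (-0.205 to 0.073), so the number pairs genotypes within a day only.

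Besides the members, named genes were those called with the 3 largest changes in each list at day 0 and at day 3, *T*, *Wnt3*, *Wnt3a*, *Fgf8*, *Cyp26a1*, *Sox2*, *Tbx6* and *Aldh1a2*, defining markers, and the 5 nearest patterns. Others (*Upf3b*, *Hand1*, *Foxf1*, *Gata3*, *Plac1*, *Hoxb4*, *Hoxb8*, *Hoxa7*, *Hoxb9*, *Ttr*, *Cdh17*, *Lgals4*, *Eomes*, *Mixl1*, *Gsc*, *Foxa2*, *Mesp1*, *Lhx1*, *Ctnnb1*, *Tcf7l1*, *Fgf4*, *Pax3*, *Pax6*, *Nes* and *2610509F24Rik*) were named after their values were seen. The members and lists were chosen with earlier results of these data known.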

Additional observations from a re-analysis of the deposited data

Results flagged for a closer look

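The change of *Cdx1* from day 0 to day 3 differed between genotypes: it was -1.55 in WT and -4.95 in KO on the log2 scale, a difference of -3.41 (edgeR interaction term, SE 0.96, adjusted p = 0.0395). The test of the difference itself is what marked it, and all 3 KO libraries of day 3 lay below all 3 of day 0. Over 20 alternative fits the difference ranged from -5.18 to -2.62 with adjusted p from 0.0131 to 0.124, and 10 passed. It was not called without WT day 0 replicate 1 or 2, WT day 3 replicate 1 or 2, any KO day 0 library, or KO day 3 replicate 1 or 2 (-3.61 to -2.62). It rests on 3 reads in KO EBs. With 3 samples a group, no test for a single outlying sample applied.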

How the results depend on the processing

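The lower levels of *Cdx1*, *Cdx2* and *Nkx1-2* in KO EBs passed in all 21 alternative fits (log2 fold changes -5.84 to -3.74, -5.24 to -4.26 and -6.10 to -4.21), as did the fall of *Cdx1* between days in KO in all 20. Other calls moved, and the cause was not tested. Without the replicate block, *Cdx2* at day 0 (-2.52) and the WT day changes of *Cdx1* (-1.32) and *Cdx2* (1.61) were not called, and the *Nkx1-2* interaction changed sign (0.016). With a block within each day, the interactions of *Cdx2* (-2.62) and *Cdx4* (-3.19) were called. That block gives no day comparison, as the days lie between its levels, and it changed no other member's call. With it the edgeR adjusted p was 0.00101 for *Nkx1-2* and 0.01265 for *Cdx2* at day 0, and 0.00845 for *Cdx4* at day 3. The fits that left out a library kept the block across both days. limma-voom did not call *Nkx1-2* at day 0 (-3.63), *Cdx4* at day 3 (-2.25), the KO day change of *Cdx4* (-2.22) or the *Cdx1* interaction (-3.32). DESeq2 called the KO day change of *Nkx1-2* (2.95) and the interactions of *Cdx2* (-2.83) and *Cdx4* (-3.38), as did no filter for the interactions (-2.80 and -3.27). A fit of only the groups compared called *Cdx1* at day 0 (-1.01) and the KO day change of *Nkx1-2* (2.68), and not the WT day changes of *Cdx1* (-1.62) or *Nkx1-2* (3.35). It gave no interaction, and no KO day change of *Cdx2*, which failed its filter. Without the 4 libraries numbered 3, an alternative added after seeing the data, *Cdx2* (-0.81) and *Nkx1-2* (-3.73) at day 0, *Cdx4* at day 3 (-1.97) and the WT day change of *Cdx1* (-0.94) were not called, and the uncalled WT day change of *Cdx4* turned negative (-0.27).

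Leaving out each library in turn gave -2.99 to -1.07 for *Cdx2* and -5.33 to -2.63 for *Nkx1-2* at day 0, and -2.93 to -1.30 for *Cdx4* at day 3. The WT day changes were -2.0 to -1.11 (*Cdx1*), 1.55 to 3.03 (*Cdx2*), -0.66 to 0.95 (*Cdx4*) and 2.12 to 4.63 (*Nkx1-2*), and the KO day changes -1.50 to 0.051 (*Cdx2*), -3.73 to -2.17 (*Cdx4*) and 1.64 to 3.47 (*Nkx1-2*). Interactions were -4.41 to -2.62 (*Cdx1*), -3.79 to -1.97 (*Cdx2*), -4.14 to -1.90 (*Cdx4*) and -1.85 to 0.59 (*Nkx1-2*). Of all tested genes 3201 were called at day 0, 4846 at day 3 and 2436 for the interaction. A block within each day gave 5447, 7347 and 4889, leaving out 1 library as few as 1717, 2907 and 1391, and leaving out the libraries numbered 3 gave 960, 2136 and 548. With the groups compared alone 5356 were called at day 0. Most members had under 100 reads a library, and KO EBs under 10 for the Cdx genes, which limits every value near 0. List counts moved as well: a block within each day gave 6 lower FGF genes (from 3) and 5 higher neural plate genes (from 3) at day 3, and limma-voom gave 3 lower caudal epiblast genes (from 6), 5 lower Wnt genes (from 7) and 1 lower FGF gene (from 3) at day 0.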
